A study of Arabidopsis thaliana with 6 samples.

Results

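The transcriptome was compared between shoot apices collected 1 h after 17-β-estradiol was brushed onto them and untreated shoot apices, in the same line of Arabidopsis thaliana. The comparison uses 2 of the 6 arrays of the series, both on 1 slide, and the log2 values the authors deposited. A probe was used when the scanner's software had marked its signal as well above background on both arrays, which held for 29216 of 43603 probes. These probes name 18603 of the 25383 genes that the array names, and 4192 of them match no gene in the table of names used here.

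The 1 h sample came from plants that carry AMY3C-EY and XVE, whose meristems had been brushed with 20 µM 17-β-estradiol, and the 0 h sample came from plants of the same genotype that had not been brushed. XVE is a chimeric transcription activator that acts on its target promoter once estradiol is bound. The labels do not describe the product of AMY3C-EY. Both groups were 21-day-old plants grown under 16 h of light, and total RNA of the shoot apical meristem and juvenile leaves was pooled from 30 plants for each sample. The study took further samples at 3 h and 6 h of estradiol, and 2 controls at 6 h: AMY3C-EY plants with the solvent DMSO in place of estradiol, and estradiol on plants that carry XVE alone. No plants brushed with solvent and no plants with XVE alone were analysed at 1 h, so estradiol, the construct, the act of brushing and 1 h of elapsed time cannot be told apart. Each side is 1 array of pooled RNA, so no difference has a replicate check, no test was made, and precision is limited by the number of arrays. The RNA is of bulk tissue, in which fewer cells of a type and less RNA per cell cannot be told apart.

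Plant shoots that are wounded or bent make jasmonate within minutes from fatty acids of the plastid membranes. Conjugated to isoleucine, the hormone binds the receptor COI1 together with JAZ proteins, which are then destroyed and release MYC transcription factors. Among the early targets are the JAZ genes themselves and the enzymes that make and inactivate the hormone. Abscisic acid, the hormone of water deficit, and ethylene act through receptors and repressors of other kinds.

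A level below is the log2 signal of a gene over that array's 75th percentile, averaged over its probes, and a difference is the level at 1 h minus the level at 0 h. On the 1 h array that percentile was a processed signal of 481.8 and on the 0 h array 555.1, and the share of spots marked as well above background was 68.8% at 1 h and 71.1% at 0 h. The lowest level well above background was -4.52 at 1 h and -4.35 at 0 h. The 4967 genes with several probes give the one measure of error at hand: their probes differed by a pooled SD of 0.49 around the mean difference of the gene. This covers the spread between probes on the same pair of arrays and not the spread between plants. Probe sequences were not used here, so signal shared between near-identical copies, such as genes of antenna proteins or allene oxide cyclases, cannot be separated.

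AMY3, which encodes a plastid α-amylase and whose name the construct bears, had a level of 2.48 at 1 h, against 1.33 at 0 h, a difference of 1.15 from 1 probe. Its level was 3.55 at 3 h and 3.87 at 6 h of estradiol, and at the 6 h controls 2.47 with XVE alone and 2.52 with DMSO. The level at 1 h was therefore close to those on both 6 h control arrays. Which part of the construct the probe can read is not known here, so the value does not check the labels.

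Of the 18603 genes, 1140 were higher at 1 h by at least 2-fold (6.13%) and 1136 were lower by as much (6.11%), so the counts on both sides were nearly equal. Farther out they were not: 231 genes passed 4-fold on the higher side (1.24%) and 80 on the lower (0.43%), 64 and 4 passed 8-fold, and 17 and 0 passed 16-fold. The median difference was -0.07, with the middle 50% of the genes between -0.45 and 0.33, and 60.4% of the genes lay within 0.5 of 0. The 2-fold threshold does not fall at a gap: 200 genes lay between 1 and 1.1 and 234 between 0.9 and 1, and 255 lay between -1.1 and -1 and 368 between -1 and -0.9. Of the genes with several probes, 232 were at least 2-fold higher, and in 132 of these every probe passed 2-fold. On the lower side 135 were at least 2-fold apart, and in 46 every probe passed. Another setting, called normexp below, corrects median spot intensities for background by normexp with an offset of 50 and then applies quantile scaling. The offset draws dim values together, and the shares of spot summary, background correction and scaling were not separated. This setting left 664 genes past 2-fold on the higher side and 478 on the lower. It took under that threshold 70 of 273 genes at least 2-fold apart, those named in the text or among the 30 farthest on either side. The named ones are given beside the results they touch. So are lists with 5 or more calls on 1 side whose count on that side it changed by over 1.5 times. Lists with fewer calls on a side also lost calls, and not all of these are given. NPR3, also named, was left out of the 273 and fell under 2-fold as well.

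Counts on the lower side came more from bright genes. With the genes split by level into 5 groups of equal size, the brightest had 151 past 2-fold on the higher side and 340 on the lower, with a median of -0.16, whereas in the other 4 groups the numbers were 234 and 256, 260 and 181, 239 and 181, and 256 and 178, from dim to bright. Of the 30 genes farthest below 0, 17 were in that brightest group, 23 have no symbol and 0 had several probes. Of the 30 farthest above 0, 2 were in the brightest group, 14 have no symbol and 5 had several probes. Among the probes that match no named gene, 135 passed 2-fold on the higher side and 506 on the lower.

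**Figure D1:**
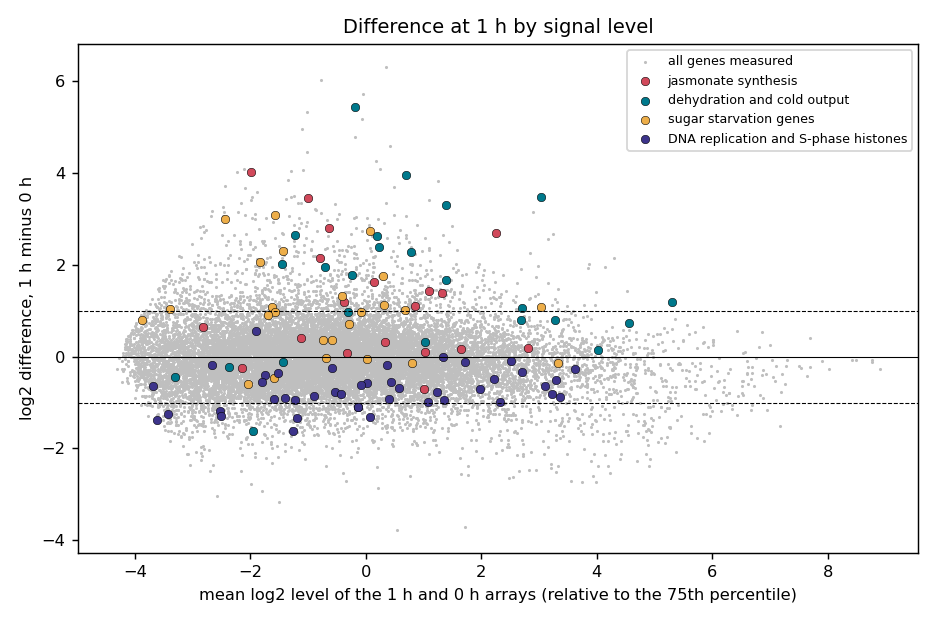
The log2 difference (1 h minus 0 h, vertical axis) is plotted against the mean level of each of the 18603 genes on the 2 arrays (log2, relative to the 75th percentile), with dashed lines at 2-fold. Points reach beyond 6 above 0 and to -3.77 below it, and in the brightest of 5 equal groups more genes lie under the lower dashed line (340) than over the upper one (151).

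The gene farthest above was RAP2.6, an ERF transcription factor of stress responses, with a level of 3.5 at 1 h, against -2.8 at 0 h, a difference of 6.31. AT2G43620 followed at 2.24 at 1 h, against -3.79 at 0 h, a difference of 6.03. LTI30, a dehydrin of cold- and drought-treated plants, was at 2.53 at 1 h, against -2.9 at 0 h. These dim genes at 0 h lay well above the 75th percentile at 1 h. FAMT, a methyltransferase gene, was at 2.2 at 1 h, against -2.58 at 0 h, TI2, which encodes a trypsin inhibitor, at 2.31 at 1 h, against -1.96 at 0 h, and the oligopeptide transporter gene OPT1 at 0.44 at 1 h, against -3.03 at 0 h. At the other end AT1G57690 was at -1.36 at 1 h, against 2.42 at 0 h and AT4G26030 at -0.14 at 1 h, against 3.57 at 0 h. BGLU13, a beta-glucosidase gene, was at 1.15 at 1 h, against 3.79 at 0 h, and EXO70H4, a subunit of the exocyst that acts in trichome walls, at 1.71 at 1 h, against 4.18 at 0 h. Over the 30 farthest above, the differences ran between 3.44 and 6.31, and in 28 of them the 1 h array was the highest of the 4 time points. Over the 30 farthest below they ran between -3.77 and -2.38, and in 28 of them the 1 h array was the lowest of the 4, counts that choosing by the 1 h level favours.

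Genes that were well above background on 1 of the 2 arrays have only a bound. There were 460 such genes at 1 h, of which 206 were at least 2-fold and 26 at least 8-fold above the limit at 0 h. At 0 h there were 847, of which 213 were at least 2-fold and 0 at least 8-fold above the limit at 1 h. CYP94C1, a cytochrome P450 that oxidises hydroxylated jasmonoyl-isoleucine, was at least 97.1-fold higher at 1 h. ABR1, an ERF repressor of the abscisic acid response, was at least 60.6-fold higher, RNS1, a ribonuclease of wounded and phosphate-starved tissue, at least 40.6-fold, PRN, a pirin, at least 34.3-fold, and JRG21 at least 22.1-fold. The bounds on the lower side were smaller: MYB11, a factor of flavonol synthesis, was at least 5.99-fold lower at 1 h, RbcX1, a rubisco assembly chaperone, at least 5.25-fold, and MYB76, a factor of aliphatic glucosinolate synthesis, at least 5.06-fold.

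Jasmonate synthesis genes were higher at 1 h: of 19 measured, 10 were at least 2-fold higher and 0 lower, with a median difference of 1.1, beside -0.07 over all genes. The plastid steps showed the widest gaps. LOX2, a 13-lipoxygenase, was at 0.27 at 1 h, against -1.87 at 0 h, and AOS, the allene oxide synthase that follows it, was at 3.61 at 1 h, against 0.91 at 0 h. Of the allene oxide cyclases, AOC2 was at 0.03 at 1 h, against -4.01 at 0 h, AOC1 at 0.72 at 1 h, against -2.74 at 0 h and AOC3 at 0.76 at 1 h, against -2.05 at 0 h, while AOC4, picked after its value was seen, was at -0.28 at 1 h, against -0.37 at 0 h. OPR3, the reductase of the peroxisomal step, differed by 1.44, FAD7, a plastid desaturase that makes the precursor fatty acid, by 1.39, and JAR1, which couples jasmonate to isoleucine, by 1.62. The 2 probes of OPR3 gave 0.72 and 2.17.

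The repressors were on the higher side as well. Of 21 genes of perception and repression, 11 were at least 2-fold higher and 0 lower, with a median of 1.12. The JAZ repressor genes made up most of them: TIFY7, also called JAZ9, was at 4.58 at 1 h, against 1.9 at 0 h, JAZ6 at 2.73 at 1 h, against 0.41 at 0 h and JAZ10 at 1.2 at 1 h, against -0.97 at 0 h. TIFY10B (JAZ2) differed by 1.96, JAZ1 by 1.78, JAZ5 by 1.76 and JAZ7 by 1.64. The receptor gene COI1 was at -1.1 at 1 h, against -1.44 at 0 h and MYC2, the main activator, at 3.84 at 1 h, against 3.03 at 0 h, both less than 2-fold apart.

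So were genes of hormone removal. ILL6 and IAR3, amidohydrolases that cleave jasmonoyl-isoleucine, were at 2.29 at 1 h, against -1.8 at 0 h, and at 1.71 at 1 h, against -1.3 at 0 h, in that order. CYP94B3, which hydroxylates the conjugate, was at -1.24 at 1 h, against -3.06 at 0 h. Of 8 turnover genes measured, 4 were at least 2-fold higher and 0 lower (median 1.41), and 3 others, CYP94C1 and JRG21 among them, have bounds of at least 2-fold in the same direction. Of the stored and defensive products, 1 of 10 was at least 2-fold higher and 1 lower, with a median of 0.19, and bounds put TAT3, a tyrosine aminotransferase gene, at least 6.89-fold and NATA1, an N-acetyltransferase gene, at least 7.88-fold higher, both named after their values were seen. With no filter on dim probes 4 of 14 were higher and 0 lower. The vegetative storage protein genes VSP1 and VSP2 differed by 0.21 and 0.32, the cystine lyase gene CORI3 by 2.98, and THI2.1, which encodes a thionin, was at 4.23 at 1 h, against 6.12 at 0 h, a difference of -1.89. THI2.1 was under 2-fold with no filter on dim probes.

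**Figure D2:**
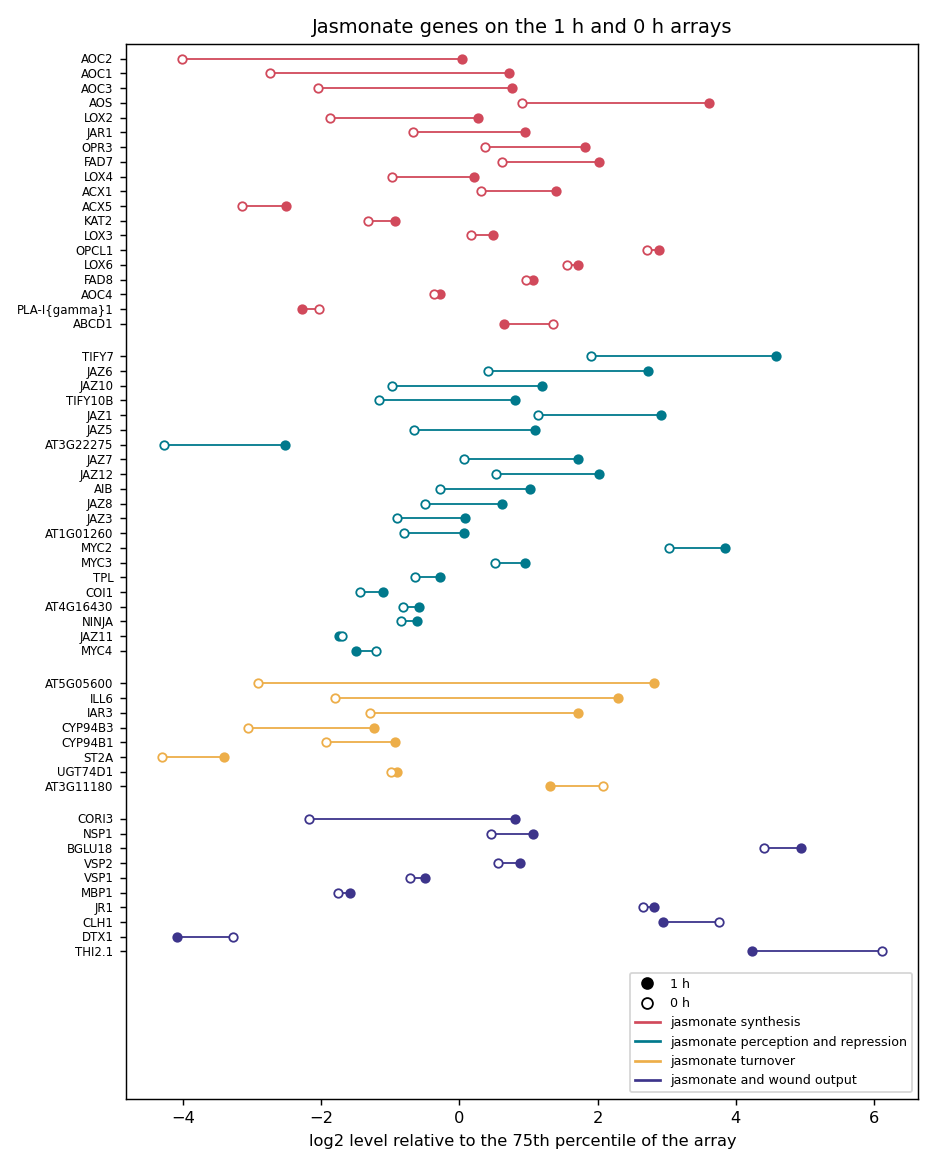
Filled circles give the level at 1 h and open circles the level at 0 h of every measured jasmonate gene (horizontal axis, log2 relative to the 75th percentile), with colours for synthesis, perception and repression, turnover, and output. The line between the circles is the difference; AOC2, AT5G05600 and ILL6 have the longest ones, and of the output genes CORI3 lies higher and THI2.1 lower at 1 h.

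Of the genes that make and sense abscisic acid, 4 of 29 were at least 2-fold higher, 2 lower, and the median was -0.05. Among the receptors PYL5 was at 0.24 at 1 h, against -2.57 at 0 h and PYL4 at 1.68 at 1 h, against 0.02 at 0 h, whereas PYL1 differed by -1.02. The phosphatase gene ABI1, a brake on the pathway, differed by 1.22 and its close relative ABI2 by -0.78. CYP707A2, an enzyme that breaks the hormone down, was lower, at -3.98 at 1 h, against -1.72 at 0 h. The genes that dehydration and cold switch on were mostly higher: 14 of 24 were at least 2-fold higher and 1 lower, with a median of 1.43. RD20, a caleosin of lipid droplets, was at 2.68 at 1 h, against -1.28 at 0 h, KIN2 at 4.79 at 1 h, against 1.29 at 0 h, and LTI78, also called RD29A, at 1.51 at 1 h, against -1.13 at 0 h. The exception was P5CS1, the first enzyme of stress-related proline synthesis, at -2.77 at 1 h, against -1.14 at 0 h. After normexp correction PYL1 and P5CS1 lay under 2-fold. PYL1 was under 2-fold after cyclic loess scaling.

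Transcription factors of cold and touch had 3 of 16 lower by at least 2-fold (18.8%, against 6.11% over all genes) and 1 higher (6.2%, against 6.13%), with a median of -0.08. DREB1A and CBF2, activators of the cold regulon, were at -4.23 at 1 h, against -1.88 at 0 h and at -2.73 at 1 h, against -0.86 at 0 h in that order. The zinc finger genes STZ (ZAT10) and RHL41 (ZAT12) differed by 0.69 and -0.47, the calmodulin-like CML38 by 0.7 and the touch gene TCH4, a xyloglucan endotransglucosylase, by -0.62. The single member at least 2-fold higher was ZF3, at -0.73 at 1 h, against -3.11 at 0 h. With normexp, DREB1A lay under 2-fold.

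In the ethylene list 4 of 25 genes were higher by at least 2-fold and 1 lower (median 0.18). They were EFE, an oxidase of the last step of synthesis (1.76), the receptor ETR2 (1.34), the kinase CTR1 (1.23) and EBF2, an F-box protein that removes ethylene transcription factors (1.85). The synthase genes ACS4 and ACS6 differed by -1.29 and -0.62. For salicylate, the hormone of resistance to biotrophs, 2 of 16 genes were at least 2-fold higher, EDS5 and NPR3, each by 1.02, and 0 were lower. EDS16, which makes the precursor isochorismate, was at -2.26 at 1 h, against -1.99 at 0 h, but its 2 probes differed in sign, at -0.71 and 0.17. The normexp values put CTR1, ACS4, EDS5 and NPR3 under 2-fold, leaving 0 higher in the salicylate list. EDS5 was under 2-fold by the brightest probe, and NPR3 was under it with median centring.

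Cell-surface immune receptors were among the genes with wide gaps. FLS2, the receptor of bacterial flagellin, was at 2.02 at 1 h, against -1.32 at 0 h, and EFR, the receptor of elongation factor Tu, was at -0.14 at 1 h, against -3.08 at 0 h. BIK1, the cytoplasmic kinase that relays both, was at 0.3 at 1 h, against -1.92 at 0 h. CERK1, a receptor of chitin, differed by 1.08, PEPR1, a receptor of wound peptides, by 1.28, and the ubiquitin ligases PUB22 and PUB23, which damp the response, by 1.47 and 1.84. The 2 probes of PUB22 gave 0.41 and 2.53. The downstream oxidase RBOHD and the kinase MPK3 differed by 0.04 and -0.39. Of 24 genes in this list 8 were at least 2-fold higher, 0 were lower, and the median was 0.4. By normexp, CERK1 lay under 2-fold.

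Among 83 cysteine-rich and other receptor kinases and receptor-like proteins, 19 were at least 2-fold higher and 6 lower, with a median of 0.1. CRK29 was at 0.51 at 1 h, against -2.99 at 0 h, the co-receptors SERK4 and SERK5 differed by 2.3 and 2.21, and CLV2, a receptor-like protein of stem cell signalling, was at 1.25 at 1 h, against -0.95 at 0 h. On the lower side CES101 differed by -1.81 and the wall-associated kinase WAK5 by -1.38. Of 98 calcium genes 10 were higher (10.2%, against 6.13% over all genes) and 4 lower (4.1%, against 6.11%). The cyclic nucleotide-gated channels CNGC3 and CNGC12 differed by 2.51 and 1.88 and the kinase gene CIPK20 by -1.6. The MAP kinase cascade had 4 of 45 members higher (8.9%), MPK18 with the widest gap (1.46), and 1 lower (2.2%). Corrected with normexp, there were 12 higher and 3 lower in the receptor kinase list, and CIPK20 lay under 2-fold. The calcium list then had 7 higher and 1 lower, and the MAP kinase list 1 higher and 0 lower.

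Genes of oxidative and electrophile stress gave calls mostly on the higher side. Of 33 oxygen-scavenging and marker genes, 6 were higher by at least 2-fold and 0 lower, with a median of 0.14. NDB2, an external NADH dehydrogenase of mitochondria, was at -0.04 at 1 h, against -2.46 at 0 h, and AOX1A, the alternative oxidase often induced with it, was at -1.11 at 1 h, against -2.49 at 0 h. Glutathione transferases had 6 of 31 higher and 0 lower, led by GSTU6 at 0.73 at 1 h, against -2.47 at 0 h and ERD9 at 1.86 at 1 h, against -0.75 at 0 h. In the list for 12-oxophytodienoate and other electrophiles, OPR1 and OPR2 differed by 2.64 and 2.02, whereas CYP81D11 differed by -1.12; 6 of 20 were higher and 1 lower. HPL1, the hydroperoxide lyase that opens the branch to green leaf volatiles, was at -0.71 at 1 h, against -2.76 at 0 h. Normexp correction put AOX1A under 2-fold, and there were 3 higher and 0 lower in the oxygen-scavenging list and 3 higher and 1 lower in the electrophile list.

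Indole metabolism was higher at several steps. ASA1 and ASB1, the subunits of anthranilate synthase that commit chorismate to tryptophan, were at 1.15 at 1 h, against -0.9 at 0 h and at -1.91 at 1 h, against -3.15 at 0 h in that order. CYP79B2 and CYP79B3 both turn tryptophan into indole-3-acetaldoxime, yet CYP79B2 was at -0.16 at 1 h, against -1.6 at 0 h and CYP79B3 at 3.2 at 1 h, against 4.65 at 0 h. CYP83B1, the next enzyme toward indolic glucosinolates, was at 2.47 at 1 h, against 0.54 at 0 h, and its regulator MYB34 differed by 1.07. PEN3, an ABC transporter of the epidermis that exports indolic compounds, was at 1.98 at 1 h, against -0.5 at 0 h, and the myrosinase gene PEN2 differed by 1.31. PAD3, the last enzyme of camalexin synthesis, differed by -0.55. Of 12 genes for camalexin and indolic compounds 5 were at least 2-fold higher and 1 lower (median 0.58), and of 11 for tryptophan 3 were higher and 1 lower (median 0.4). After normexp correction there were 3 higher and 1 lower in the camalexin and indolic list, and ASB1, CYP79B2 and MYB34 lay under 2-fold.

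In the aliphatic branch 1 of 17 genes was at least 2-fold higher and 2 were lower, with a median of -0.4. The entry enzymes CYP79F1 and CYP79F2 differed by -1.01 and -1.02, their regulator MYB28 by -0.71 and the glucosinolate importer GTR1 by 1.19. Of 23 sulfate genes 0 were higher by at least 2-fold and 0 lower. With normexp, CYP79F1 and CYP79F2 lay under 2-fold. CYP79F1 and CYP79F2 were under 2-fold after cyclic loess scaling.

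The general phenylpropanoid pathway was higher at the steps named here, which were chosen by the size of their differences. PAL1 and PAL2, which deaminate phenylalanine, differed by 1.26 and 1.35, and C4H, the following hydroxylase, by 1.44. The 2 probes of PAL1 gave 0.27 and 2.26. Among the coumarate CoA ligases 4CL5 was at 0.94 at 1 h, against -3.12 at 0 h, while 4CL1 and 4CL2 differed by 1.13 and 1.14. CCR2, a cinnamoyl-CoA reductase, was at -0.41 at 1 h, against -2.41 at 0 h and CAD5, the alcohol dehydrogenase of the last step, at 1.31 at 1 h, against -1.43 at 0 h. Of 23 genes 14 were above 0 and 8 were at least 2-fold higher, with a median of 0.61, and 1, the lignin regulator MYB58 (-1.04), was lower. Flavonoid genes, which use the same precursor, lay on the other side of 0: 0 of 19 were at least 2-fold higher, 1 was lower and the median was -0.68. TT4, the chalcone synthase, differed by -0.49, DFR by -0.68, LDOX by -0.93 and the bHLH regulator EGL3, the member past 2-fold, by -1.34. The normexp values put 4CL1, 4CL2, MYB58 and EGL3 under 2-fold. MYB58 was under 2-fold with no filter on dim probes and after cyclic loess scaling.

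Other specialised and surface lipid genes were mixed. Glycosyltransferases of the UGT family had 7 of 42 higher, with UGT85A1 at 1.42 at 1 h, against -1.22 at 0 h, and 6 lower, with UGT80B1 at a difference of -1.54. Of 128 cytochromes P450 12 were higher and 13 lower. CYP82G1, an enzyme of homoterpene volatiles, was at -0.88 at 1 h, against -4.03 at 0 h and CYP81D1 at -0.49 at 1 h, against -3.83 at 0 h. Wax and cutin genes had 4 of 28 higher, namely CER2 (2.21), the cutin hydroxylase CYP86A2 (1.72), the elongase KCS1 (1.31) and the regulator MYB96 (1.53), 1 lower, and a median of -0.17. The alkane enzyme CER1 differed by -0.84. Epidermis markers, which include CER1 itself, were lower in this pair of arrays, 5 of 5 below 0 with a median of -0.56 and a summed linear level of 16.6 at 1 h and 22.7 at 0 h; their part in the wax and cutin values was not tested. By normexp, there were 3 higher and 2 lower in the UGT list and 6 higher and 5 lower in the P450 list, and UGT80B1 lay under 2-fold.

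Photosynthesis genes differed little. Of 54 photosystem and antenna genes 0 were higher by at least 2-fold and 0 lower, but 40 had a difference above 0, with a median of 0.3 and a range between -0.71 and 0.76. Of 32 Calvin cycle and photorespiration genes 30 were above 0, with a median of 0.4. The rubisco activase gene RCA differed by 0.58, GAPB, a subunit of the glyceraldehyde phosphate dehydrogenase of the cycle, by 0.77, and CP12-3, a small regulator of the cycle and the member past 2-fold, by 1.1. Mesophyll markers, photosynthesis genes themselves, were above 0 in 8 of 9 cases, with a median of 0.37 and a summed linear level of 526 at 1 h and 407 at 0 h; their part in these values was not tested. In chlorophyll and carotenoid synthesis 2 of 38 were higher, HEMA2, a glutamyl-tRNA reductase (1.71), and NYE1, which opens chlorophyll breakdown (1.03), and 1, the protochlorophyllide reductase PORB (-1.35), was lower. Plastid ribosome genes had 0 and 0 of 15 past 2-fold. Corrected with normexp, CP12-3 and NYE1 lay under 2-fold.

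Genes that mark a carbon shortage were mostly above 0, 12 of 25 by at least 2-fold with 0 lower and a median of 0.97. BCAT-2, a branched-chain aminotransferase, was at -0.94 at 1 h, against -3.94 at 0 h, and MCCA, a subunit of the carboxylase of leucine breakdown, at 1.17 at 1 h, against -0.59 at 0 h. GDH2, a glutamate dehydrogenase, was at -0.29 at 1 h, against -2.59 at 0 h. Over the sucrose, hexose and trehalose list 3 of 35 were higher by at least 2-fold (8.6%, against 6.13% over all genes), 0 lower and 18 above 0, with a median of 0.06. SUC1, a sucrose-proton symporter, was at 1.0 at 1 h, against -1.42 at 0 h, and the monosaccharide importers STP4 and STP1 differed by 2.15 and 1.77. Of the trehalose phosphate synthase family 3 of 9 were higher, TPS9 (1.02), TPS10 (1.09) and TPS11 (1.12). Normexp correction put TPS9, TPS10 and TPS11 under 2-fold, and there were 7 higher and 0 lower in the carbon shortage list. TPS9 was under 2-fold with median centring.

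Starch genes had 6 of 40 higher, AMY3 among them, 2 lower and a median of -0.18. GPT2, which imports glucose phosphate into plastids, was at -1.4 at 1 h, against -4.15 at 0 h, and BMY3, a beta-amylase family gene also called BAM9, at 1.05 at 1 h, against -0.96 at 0 h. The beta-amylases BAM1 and CT-BMY (BAM3), which release maltose, differed by 1.67 and 1.26, and the granule-bound starch synthase GBSS1 by 1.4. The cytosolic phosphorylase PHS2 was at -1.29 at 1 h, against 0.29 at 0 h and the debranching enzyme ISA3 at -3.55 at 1 h, against -2.47 at 0 h, the lower members. After normexp correction ISA3 lay under 2-fold. ISA3 was under 2-fold after cyclic loess scaling.

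Several nitrogen transport genes were higher. NRT1.7, which loads nitrate into the phloem of old leaves, was at -0.74 at 1 h, against -3.42 at 0 h, NRT1.8 differed by 1.62, and the ammonium transporters AMT2 and AMT1;1 by 2.3 and 1.8. LBD38, a repressor of nitrogen responses, differed by 1.87. Of 24 genes 6 were higher by at least 2-fold and 0 lower. The phosphate list had 3 of 20 higher and 2 lower: SPX1, an intracellular phosphate sensor, was at 1.25 at 1 h, against -1.12 at 0 h, and the uptake carrier PHT1;1 at -3.35 at 1 h, against -2.01 at 0 h. Among 33 metal genes YSL3, a carrier of metal complexes, was at 2.04 at 1 h, against -1.05 at 0 h, and the nicotianamine synthases NAS1 and NAS3 differed by -1.47 and -1.24; they were the 1 higher and 2 lower members past 2-fold. With normexp, PHT1;1 and NAS3 lay under 2-fold.

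Nitrogen-rich metabolites had 6 of 17 genes higher and 1 lower, with a median of 0.43. ERD5, the proline dehydrogenase, was at 0.61 at 1 h, against -1.7 at 0 h, and for synthesis P5CS2 differed by 1.05 against -1.63 for P5CS1. ADC2, an arginine decarboxylase of polyamine synthesis, differed by 1.56 and the arginase ARGAH2 by 1.44. For ascorbate and tocopherol, CYT1 (VTC1) differed by 1.46, VTC5 by 1.36, PDS1, which makes the tocopherol head group, by 1.35, and VTC4 and VTE1 by -1.02 and -1.01. Mitochondrial respiration genes had 6 of 58 higher, with the ADP/ATP carrier AAC3 at -2.36 at 1 h, against -4.08 at 0 h, and 0 lower. The normexp values put VTC4, VTE1 and AAC3 under 2-fold, and there were 1 higher and 0 lower in the mitochondrial respiration list. VTC4 was under 2-fold by the brightest probe, and VTC4 and VTE1 were under it after cyclic loess scaling.

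Cell cycle genes lay mostly below 0. Of 43 DNA replication and S-phase genes 9 were at least 2-fold lower, 0 higher and 1 above 0, with a median of -0.76. RPA70B, a single-strand binding subunit, was at -2.07 at 1 h, against -0.46 at 0 h, and CDC45, a part of the replicative helicase, at -4.3 at 1 h, against -2.94 at 0 h. The origin recognition genes ORC2, ORC3 and ORC6 differed by -1.29, -1.34 and -1.19, the licensing factor CDC6 by -1.24 and the sliding clamp PCNA1 by -1.1. Mitosis and cytokinesis genes had 3 of 46 lower (6.5%, against 6.11% over all genes), 0 higher and a median of -0.41. CYCB1;1, a mitotic cyclin, was at -3.14 at 1 h, against -1.95 at 0 h, the checkpoint gene BUBR1 differed by -1.04 and the inhibitor ICK5 by -1.66. Histone variants had a median of -0.31 over 30 genes and DNA repair a median of -0.47 over 26. Meristem markers, by comparison, had a median of -0.24 over 6 genes and a summed linear level of 3.44 at 1 h and 3.8 at 0 h; their part in the cell cycle values was not tested. By normexp, there were 0 higher and 2 lower in the DNA replication list, and CDC45, ORC2, ORC3, ORC6, CDC6, PCNA1, CYCB1;1 and BUBR1 lay under 2-fold. CDC6 and BUBR1 were under 2-fold after cyclic loess scaling.

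Ribosome biogenesis genes lay on the lower side. Of 24 biogenesis genes 4 were lower by at least 2-fold and 0 higher, with a median of -0.67, and of 30 cytosolic ribosomal protein genes 0 and 0 passed 2-fold and the median was -0.18. FIB2, the fibrillarin that methylates ribosomal RNA, was at 0.34 at 1 h, against 1.98 at 0 h, and its partner NOP56 at 1.58 at 1 h, against 2.83 at 0 h. NRPA1, the large subunit of RNA polymerase I, differed by -1.1 and the nucleolar GTPase NSN1 by -1.1. Translation factors and tRNA synthetases had 1 of 26 lower, the poly(A)-binding protein PAB4 (-1.14). Corrected with normexp, NOP56, NRPA1 and NSN1 lay under 2-fold. NOP56 was under 2-fold by the brightest probe, and NRPA1 was under it after cyclic loess scaling.

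Wall genes lay on both sides of 0. Of 42 wall loosening genes 4 were higher by at least 2-fold and 9 lower, with a median of -0.26. The expansins EXPA8 and EXPA17 were at -3.22 at 1 h, against -1.07 at 0 h and at -4.08 at 1 h, against -2.33 at 0 h in that order. Xyloglucan endotransglucosylases stood on both sides, XTH32 at 0.39 at 1 h, against -1.49 at 0 h and XTH31 at -1.4 at 1 h, against 0.3 at 0 h. The farthest of the pectin and cellulose genes was CSLG2, a cellulose synthase-like gene, at -4.09 at 1 h, against -1.06 at 0 h. Of these 61 genes 4 were higher (6.6%, against 6.13% over all genes) and 5 lower (8.2%, against 6.11%). Of 46 arabinogalactan and extensin genes 1, EXT4 (1.6), was higher and 3, FLA12 (-1.33), FLA5 (-1.08) and FLA1 (-1.01), were lower. Of 23 aquaporins 0 were higher and 2 lower. Tubulin, actin and microtubule genes had 1 of 61 higher and 0 lower. Normexp correction put EXPA17, FLA12, FLA5 and FLA1 under 2-fold, and there were 2 higher and 4 lower in the wall loosening list and 4 higher and 3 lower in the pectin and cellulose list. FLA1 was under 2-fold by the brightest probe, and FLA5 and FLA1 were under it after cyclic loess scaling.

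Genes of the growth hormones lay on both sides of 0. Of 103 auxin response genes 13 were higher by at least 2-fold and 3 lower, with a median of -0.03; with no filter on dim probes there were 17 higher and 14 lower of 160. The Aux/IAA repressor IAA5 was at -1.94 at 1 h, against -3.93 at 0 h, IAA2 differed by 1.62, and the conjugating enzymes GH3.3 and DFL2 by 1.39 and 1.94. YUC1, an enzyme of auxin synthesis, was lower, at -0.44 at 1 h, against 1.37 at 0 h. For cytokinin, the oxidase CKX4, which destroys the hormone, was at 0.92 at 1 h, against -0.85 at 0 h, the synthesis gene IPT1 at 3.2 at 1 h, against 4.81 at 0 h, and the counts were 3 higher and 1 lower of 39. For gibberellin, the inactivating GA2OX6 was at 1.0 at 1 h, against -2.0 at 0 h, the DELLA repressor RGL3 at -1.28 at 1 h, against -2.87 at 0 h and the receptor GID1B differed by 1.09, the 3 higher members of 21, while GASA6, a gibberellin-regulated peptide, was at -0.08 at 1 h, against 1.81 at 0 h. Brassinosteroid genes had 1 of 28 higher (3.6%, against 6.13% over all genes) and 2 lower (7.1%, against 6.11%). After normexp correction there were 5 higher and 1 lower in the auxin list, and IAA5, RGL3 and GID1B lay under 2-fold.

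Heat shock factors and chaperones had 1 of 62 higher (1.6%, against 6.13% over all genes), 3 lower (4.8%, against 6.11%) and a median of -0.38. HSFA7A was at -0.26 at 1 h, against 1.17 at 0 h. Folding genes of the endoplasmic reticulum had 1 of 33 higher, the sensor IRE1A (1.03), and 0 lower, and the chaperones BIP1 and BIP2 differed by -0.88 and -0.91. Proteasome and ubiquitin genes had 4 of 94 higher (4.3%, against 6.13% over all genes) and 1 lower, with a median of 0.11 and 60 genes above 0. The 4 higher ones were all ubiquitin-conjugating enzymes, with UBC17 the farthest (1.69). Autophagy genes had 1 of 31 higher and 1, ATG18C (-1.22), lower, and 21 were above 0, with a median of 0.32. Of 21 U-box ligases 4 were higher, SAUL1 at -0.72 at 1 h, against -2.46 at 0 h, and 3 lower, PUB29 at -3.0 at 1 h, against -1.09 at 0 h. With normexp, IRE1A and ATG18C lay under 2-fold.

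**Figure D3:**
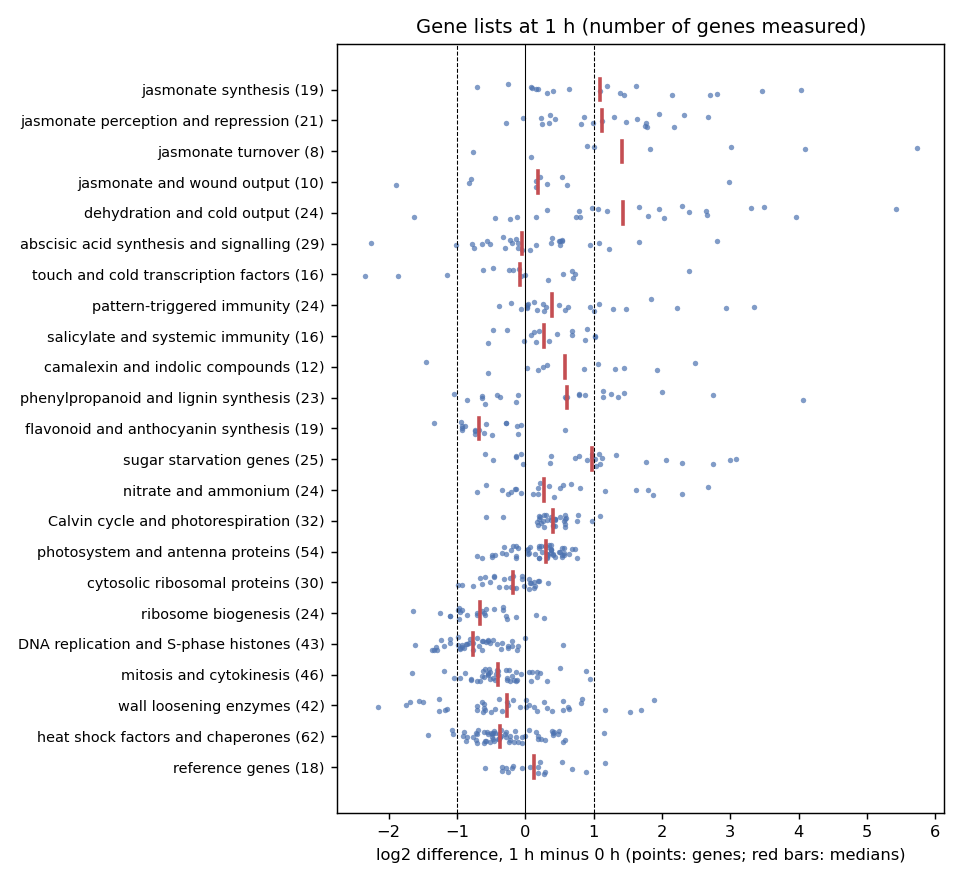
Each point is a measured gene of the named list, placed by its log2 difference (1 h minus 0 h), and each red bar is the median of the list, with the number of genes measured in brackets and dashed lines at 2-fold. Points of the dehydration and cold output list, with a median of 1.43, lie mostly to the right, and those of DNA replication, with a median of -0.76, to the left of 0.

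Transcription factors were counted by family, beside 6.13% higher and 6.11% lower over all genes. WRKY factors had 14 of 51 at least 2-fold higher (27.5%) and 5 lower (9.8%), with a median of 0.31. WRKY28 was at -0.24 at 1 h, against -3.72 at 0 h, WRKY25 at -0.37 at 1 h, against -3.47 at 0 h, and WRKY48 at -0.94 at 1 h, against -4.01 at 0 h. WRKY53, a factor of leaf senescence, differed by 2.09, and on the lower side WRKY49 by -1.94 and WRKY55 by -1.76. NAC factors had 7 of 60 higher (11.7%) and 4 lower (6.7%). NAC019 and RD26, stress factors that jasmonate and abscisic acid share, were at -0.55 at 1 h, against -3.63 at 0 h and at 0.27 at 1 h, against -1.69 at 0 h in that order. ERF and DREB factors had 6 of 59 higher (10.2%) and 8 lower (13.6%). Beside RAP2.6, RAP2.9 was at -0.26 at 1 h, against -3.94 at 0 h, and ERF2 differed by 1.75. ORA47, an activator of jasmonate synthesis genes, was at -0.72 at 1 h, against 0.63 at 0 h. The normexp values put WRKY49 and ERF2 under 2-fold, and there were 11 higher and 2 lower in the WRKY list, 3 higher and 1 lower in the NAC list and 3 higher and 4 lower in the ERF and DREB list.

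MYB factors had 9 higher and 9 lower of 74 (12.2% on each side), with 28 above 0 and a median of -0.27. Bounds added 1 higher and 5 lower. With no filter on dim probes there were 13 higher and 19 lower of 130. MYB15, which acts in lignin and cold responses, was at 2.03 at 1 h, against -0.63 at 0 h and MYB74 at -0.96 at 1 h, against -3.41 at 0 h, while MYB61, MYB77 and MYB36 differed by -1.69, -1.68 and -1.43. The bZIP family had 5 of 43 higher (11.6%) and 1, BZIP34 (-2.12), lower (2.3%). Of the higher ones, the G-box factor GBF3 was at -0.55 at 1 h, against -3.02 at 0 h, and HY5 and HYH differed by 1.15 and 1.03. Homeobox genes had 6 of 78 higher (7.7%, against 6.13% over all genes) and 7 lower (9.0%, against 6.11%). HAT22 was at -0.57 at 1 h, against -2.75 at 0 h. Among 62 bHLH genes 4 were higher (6.5%, against 6.13% over all genes) and 5 lower (8.1%, against 6.11%). The higher ones include AIB, a repressor of jasmonate responses (1.3), and the lower ones PIF4, a growth factor of warmth and shade (-1.62). MADS-box genes had 1 of 38 higher (2.6%) and 5 lower (13.2%), with 2 lower after quantile or cyclic loess scaling. The growth factor families TCP, SPL and GRF had 1, TCP20 (1.36), of 43 higher (2.3%) and 2 lower (4.7%). By normexp, there were 6 higher and 3 lower in the MYB list, 3 higher and 0 lower in the bZIP list, 3 higher and 2 lower in the homeobox list, 2 higher and 2 lower in the bHLH list and 0 higher and 2 lower in the MADS-box list, and MYB61, MYB36, HY5, BZIP34, AIB and TCP20 lay under 2-fold. HYH was under 2-fold by the brightest probe.

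**Figure D4:**
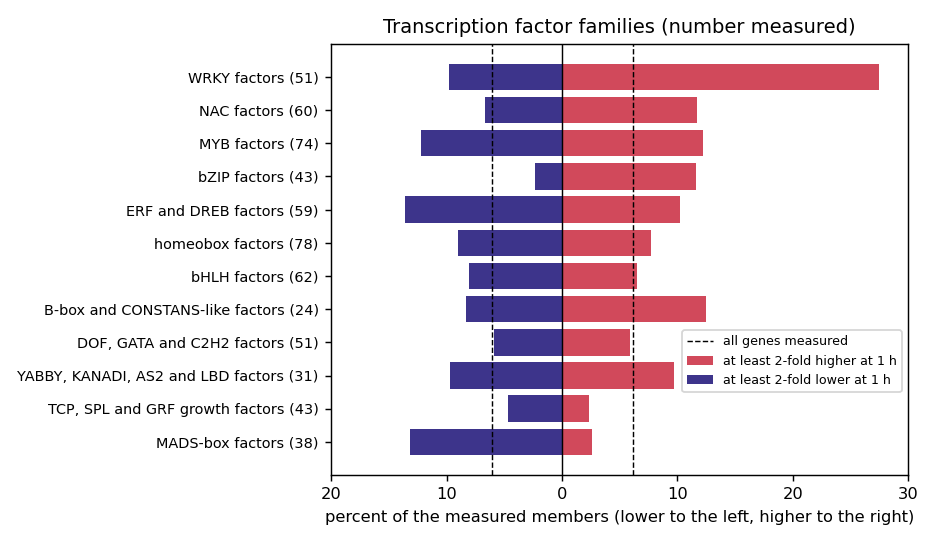
Bars give the percent of the measured members of each transcription factor family that were at least 2-fold higher at 1 h (to the right) or lower (to the left), with family size in brackets and dashed lines at the percent over all genes, 6.13 and 6.11. WRKY factors have 27.5% higher and 9.8% lower, and MADS-box factors 2.6% higher and 13.2% lower.

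Clock genes cycle over the day, and the arrays differ by 1 h as well as in treatment. Of 13 morning genes 4 were higher by at least 2-fold and 0 lower, with LHY, a dawn MYB factor, at 2.86 at 1 h, against 1.17 at 0 h and RVE1, a relative tied to auxin rhythms, at 0.26 at 1 h, against -1.51 at 0 h. CCA1, the partner of LHY, differed by 0.83. Evening genes had 1 and 1 of 17 past 2-fold, TOC1 differed by -0.01 and GI by -0.98. In light signalling 5 of 34 genes were higher and 2 lower, with ELIP2, an early light-induced protein, at -1.25 at 1 h, against -3.47 at 0 h and the ultraviolet-B receptor UVR8 at 3.49 at 1 h, against 5.15 at 0 h. Corrected with normexp, there were 2 higher and 2 lower in the light signalling list.

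FLD, a histone demethylase that lowers the flowering repressor FLC, was at -1.65 at 1 h, against 0.87 at 0 h, the widest gap among 32 flowering time genes. Of the 32 genes 2 were higher (6.2%, against 6.13% over all genes) and 3 lower (9.4%, against 6.11%). SMZ, a floral repressor, was at -2.16 at 1 h, against -3.98 at 0 h and AGL24, a floral promoter, at 1.72 at 1 h, against 3.13 at 0 h. Of 34 meristem regulators 1, CLV2, was at least 2-fold higher and 1, HEC2 (-1.37), lower. The stem cell genes STM and CLV3 differed by -0.31 and -0.41. Organ boundary and polarity genes had 0 and 0 of 25 past 2-fold, with a median of -0.26, and the stomatal lineage 0 and 0 of 23, with a median of -0.39. Of 31 trichome and epidermis genes 4 were lower (12.9%, against 6.11% over all genes) and 0 higher, with a median of -0.53. GL2, the homeobox factor of hair fate, was at -1.05 at 1 h, against 0.09 at 0 h. The trichome markers, which include regulators of this list, were below 0 in 4 of 4 cases (median -0.52), with a summed linear level of 3.95 at 1 h and 6.02 at 0 h; their part in these values was not tested. Normexp correction put SMZ, HEC2 and GL2 under 2-fold, and there were 0 higher and 0 lower in the trichome and epidermis list.

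Genes of small RNAs and silencing had 2 of 118 higher (1.7%, against 6.13% over all genes) and 7 lower (5.9%, against 6.11%), with a median of -0.17. HST, which exports microRNAs from the nucleus, was at 2.55 at 1 h, against 4.27 at 0 h, NRPE5, a subunit of RNA polymerase V, at 4.49 at 1 h, against 6.03 at 0 h, and ATX1, a histone methyltransferase, at -3.91 at 1 h, against -2.66 at 0 h. Of 36 splicing factors 0 were higher and 2 lower, U2AF35B (-1.66) and RS41 (-1.07). After normexp correction there were 0 higher and 3 lower in the small RNA and silencing list, and ATX1 and RS41 lay under 2-fold. HST and ATX1 were under 2-fold with no filter on dim probes, and ATX1 and RS41 were under it after cyclic loess scaling.

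The label of shoot apex and juvenile leaf was set against marker genes. All 9 mesophyll, 5 epidermis and 4 trichome markers with a probe were well above background on both arrays. Of 9 meristem markers 6 were, and WUS, UFO and LFY, genes of the organising centre and the young flower, were well above background on neither array. Root markers were not all dim: 4 of 6 were well above background on both arrays, with a summed linear level of 33.8 at 1 h and 72.2 at 0 h, of which SHR, a root patterning gene also active in shoot vasculature, was at 1.99 at 1 h, against 4.42 at 0 h and COBL9 at 4.87 at 1 h, against 5.65 at 0 h, while RHD6 and PLT1 were on neither array. Of 6 flower and pollen markers 3 were measured on both arrays, SEP3, a floral organ gene, at 6.09 at 1 h, against 7.24 at 0 h. Guard cell markers had a median difference of -0.08 over 5 genes and vasculature markers of 0.09 over 4. The labels' treatment protocol also speaks of leaf tissue, so the balance of apex and leaf in each pool is not known. With normexp, SEP3 lay under 2-fold. SEP3 was under 2-fold with no filter on dim probes and after cyclic loess scaling.

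Reference genes, which are often held to be constant, had a median difference of 0.13 over 18 measured. TUB2, TUA3 and PP2AA3 differed by -0.18, 0.19 and 0.29, ACT7 and ACT8 by -0.29 and 0.21, and UBQ10 by 0.68. The 1 past 2-fold was UBC9, at 1.13 at 1 h, against -0.04 at 0 h. Differences of up to 1.17 thus occur in this set.

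Levels on the other arrays are set beside the 1 h values here, and no overlap is drawn from them, since all share the 0 h array. RAP2.6 was at -2.8, 3.5, 1.68 and 0.11 at 0, 1, 3 and 6 h, at 0.07 with XVE alone and at 1.18 with DMSO. FLS2 was at -1.32, 2.02, -0.62 and -0.03 over the 4 times, and at -0.17 with XVE and 0.19 with DMSO. 4CL5 was at -3.12, 0.94, -1.61 and -2.2, then -2.21 and -1.76. All 3 had their highest level at 1 h. CLV2 was at -0.95, 1.25, -1.01 and -0.89, then -0.82 and -1.11. On the lower side FLD was at 0.87, -1.65, -0.5 and -0.37, then -1.18 and 1.79, and DREB1A at -1.88, -4.23, -2.17 and -1.66, then -1.2 and -0.81. These genes were chosen by their difference at 1 h, which favours an extreme level at that time.

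**Figure D5:**
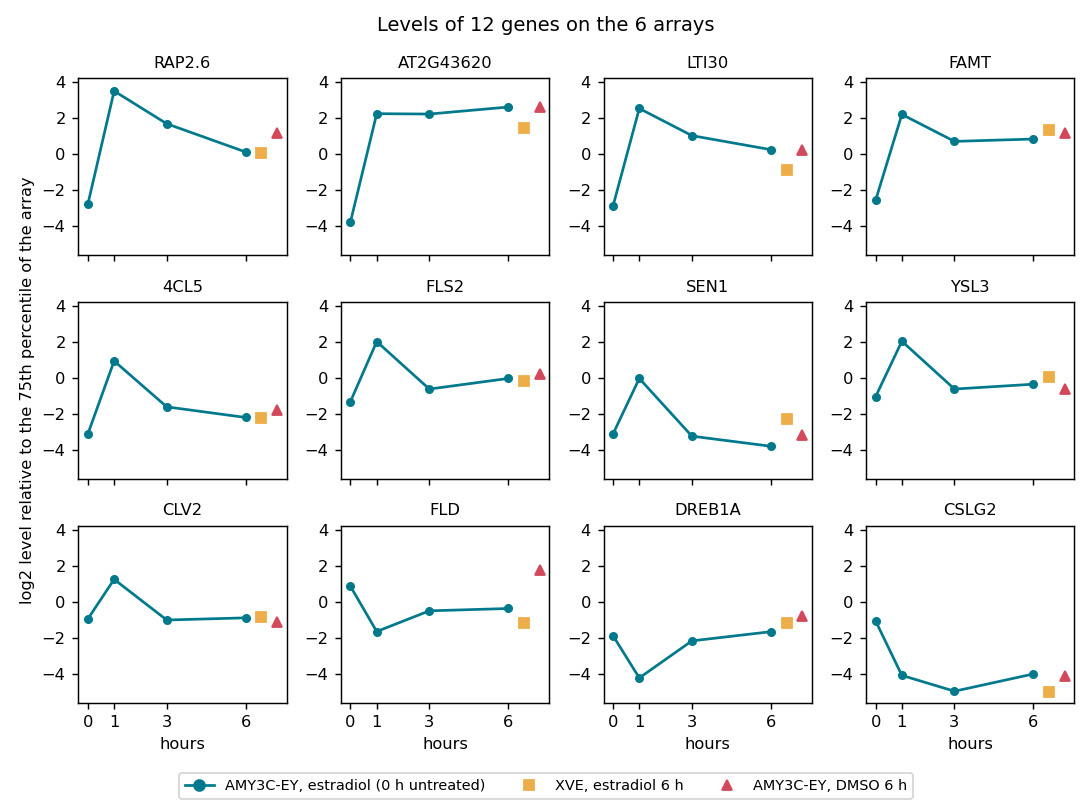
Levels (vertical axis, log2 over the 75th percentile of its array) of 12 genes are joined over 0, 1, 3 and 6 h, with the 6 h arrays of XVE plants with estradiol (square) and AMY3C-EY plants with DMSO (triangle) beside them, 1 array a point. RAP2.6 stands at 3.5 at 1 h and at 1.68 at 3 h, and CSLG2 at -4.09 at 1 h and at -1.06 at 0 h.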

How the data were processed

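The deposited log2 table of the authors holds a value per probe and array, with its scale unstated. Set against the deposited scanner files, it is log2 processed intensity scaled to each array's 75th percentile, up to 1 constant, within 0.01 for 100.0% of the probes; its medians were -2.116 (1 h) and -2.079 (0 h), so scale, centring and direction are known. Per the file headers, the processed intensity is background-subtracted with spatial detrending; the software, Agilent Feature Extraction 10.5.1.1, is named in the submitters' processing notes.

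A probe was kept when every unflagged spot was well above background on both arrays, and a gene is the mean of its probes. Names came from a RefSeq table of TAIR10.1, in which 34285 of 43603 probes matched 1 locus and 9318 none. A gene above background on 1 array has a bound against the higher of its own dim level and the lowest level well above background there.

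Samples were grouped by the labels. With 1 array a side no test was made, and genes 2-fold apart were counted. The 88 gene lists and members were chosen with earlier results of these data known. Named genes are the 30 farthest on each side, the 8 largest bounds on each side, and per list up to 8 members with the largest differences, members 2-fold against most of their list and a few members marked by hand; AMY3, reference genes and cell type markers could be named whatever their value. The markers RCH1 and LAT52 matched no probe.

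The computation was tested on simulated data. Alternatives were the scanner's 75th percentile, median centring, quantile and cyclic loess scaling, the brightest probe, dropping the filter on dim probes, and keeping genes well above background on all 6 arrays. A further one was normexp with an offset of 50 on median spot and background intensities, followed by quantile scaling (mean spot signals were not used here). Python 3.11.15, numpy 2.4.6, pandas 2.3.3, R 4.3.3 and limma 3.58.1 were used.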

Additional observations from a re-analysis of the deposited data

How the results depend on the processing

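The count of genes at least 2-fold apart kept within 1.5 times of the reported 1140 higher and 1136 lower under the scanner's 75th percentile, median centring, quantile scaling, cyclic loess, genes well above background on all 6 arrays and the brightest probe. It was 664 higher and 478 lower under normexp and 1841 higher and 1971 lower with no filter on dim probes, where 25379 genes entered. Of the reported genes, 640 higher and 470 lower ones were shared with normexp. Cyclic loess turned the balance of the calls, with 1401 higher and 865 lower, 61.8% higher against 50.1% as reported, and moved the median of all genes to 0.04, against -0.07; all 865 lower genes were among those reported. Quantile scaling gave 1246 higher and 966 lower (56.3% higher). Of 273 named genes at least 2-fold apart, which leave out NPR3, 70 lay under 2-fold with normexp. Cyclic loess did this to 16, namely ATX1, BUBR1, CDC6, CYP79F1, CYP79F2, FLA1, FLA5, ISA3, MYB58, NRPA1, PYL1, RS41, SEP3, VTC4, VTE1 and WRI1, and quantile scaling to 10 of the same genes. With no filter it was 6 (ABCG2, ATX1, HST, MYB58, SEP3 and THI2.1), with the brightest probe 6 (CDF2, EDS5, FLA1, HYH, NOP56 and VTC4), with median centring 2 (CRC and TPS9), and 0 changed sign in any setting. NPR3 lay under 2-fold with normexp and with median centring. The medians of 88 gene lists were set against the pooled SD between probes of a gene, 0.49. They moved by less than this in every setting, except for jasmonate turnover under normexp and with no filter. There the median was 0.87 and 3.01, against 1.41 as reported. Many list medians are themselves smaller than that SD, so moving by less than it does not show that a median was stable. Of these medians, 21, reported between -0.35 and -0.01, were above 0 in at least 1 setting, those of abscisic acid, auxin, cytokinin, and cold and touch factors among them. The causes were not tested. Dim genes limit the values: the lowest level well above background was -4.52 at 1 h and -4.35 at 0 h, and 460 genes at 1 h and 847 at 0 h have only a bound. No paired analysis was possible because each group has 1 array.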

Other observations

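B-box and CONSTANS-like factors had 3 of 24 genes at least 2-fold higher (12.5%, against 6.13% over all genes) and 2 lower (8.3%, against 6.11%). COL1, a CONSTANS-like gene, was at 0.89 at 1 h, against -1.1 at 0 h, and LZF1, a B-box factor of light-driven greening, at -3.82 at 1 h, against -2.57 at 0 h. Of 51 DOF, GATA and C2H2 factors 3 were higher (5.9%, against 6.13% over all genes) and 3 lower (5.9%, against 6.11%). CDF2, a repressor of CONSTANS, was at -1.23 at 1 h, against -2.45 at 0 h, and its relative CDF1 at -1.31 at 1 h, against -0.47 at 0 h. Of 31 YABBY, KANADI, AS2 and LBD factors 3 were higher (9.7%, against 6.13% over all genes) and 3 lower (9.7%, against 6.11%). Among the higher ones was CRC, a carpel and nectary gene, at -0.94 at 1 h, against -1.95 at 0 h. ABC and MATE transporters had 3 of 89 higher (3.4%, against 6.13% over all genes) and 3 lower (3.4%, against 6.11%). Both sides held transporters of the G group: ABCG1 was at -0.9 at 1 h, against -2.87 at 0 h and ABCG2 at -4.25 at 1 h, against -2.62 at 0 h. Class III peroxidases had 1 of 7 higher, AT5G64120 at 2.7 at 1 h, against -1.88 at 0 h, and 1 lower, PRXCA at -1.62 at 1 h, against -0.39 at 0 h. Of 34 fatty acid and membrane lipid genes 3 were higher, FAD7 and LACS4, an acyl-CoA synthetase (1.16), among them, and 2 lower, the oil regulator WRI1 (-1.06) and the oleosin gene OLEO1 (-1.24). The normexp correction left ABCG2, CDF2, CRC, LZF1, PRXCA and WRI1 under 2-fold. So did using no filter on dim probes for ABCG2, the brightest probe for CDF2, median centring for CRC and cyclic loess scaling for WRI1. With normexp there were 2 higher and 0 lower in the B-box list and 1 higher and 2 lower in the DOF, GATA and C2H2 list. The YABBY, KANADI, AS2 and LBD list then had 1 higher and 0 lower, and the transporter list 2 higher and 0 lower.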
